A study of Mus musculus with 13 samples.

Results

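Collagen IV is the collagen of basement membranes, and its 6 chains are encoded by Col4a1 to Col4a6. These 6 genes were taken by symbol from the 46958 genes of the deposited count table. All 6 were among the 16738 genes that passed the filter on low counts. Messenger RNA was measured in glomeruli, the tufts of capillaries in which the kidney filters blood, that had been isolated with magnetic beads from mice aged 6 months. The 4 libraries of the genotype labelled kFRA (LCDD) are called LCDD below, after light chain deposition disease, in which light chains of a single clone of plasma cells accumulate along renal basement membranes. The remaining libraries were 4 from DH-LMP2A mice and 5 from wild-type (WT) mice. All 13 carry the same label for strain, a mixed background of C57/BL6x129/SVxBALB/c. The labels do not describe the kFRA or DH-LMP2A alleles, and do not say whether the LCDD mice also carry DH-LMP2A. Each library pooled 3 mice, except WT replicates 3 to 5, which came from 1 mouse each.

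A triplet of collagen IV chains winds into a protomer, and protomers join into a network. The alpha1 and alpha2 chains make the network found in basement membranes throughout the body, which in the glomerulus is produced by mesangial and endothelial cells. The alpha3, alpha4 and alpha5 chains make the network of the mature glomerular basement membrane, which is produced by podocytes, and defects in these chains cause Alport syndrome. The alpha6 chain joins with alpha5 in other membranes, among them Bowman's capsule, the wall around the glomerulus that is lined by parietal epithelial cells.

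The genes lie in 3 pairs, each transcribed outward from neighbouring start sites, so sequence at or between the starts is shown here. For Col4a6 and Col4a5 only the bases next to each start are shown, and the middle of the stretch between them is left out. On mouse build GRCm38, Col4a1 spans chr8:11198423-11312826 on the minus strand and Col4a2 spans chr8:11312805-11449287 on the plus strand, and their first exons overlap by 22 bases. Col4a4 spans chr1:82448423-82586849 on the minus strand and Col4a3 spans chr1:82586921-82722059 on the plus strand, with 71 bases between them. Col4a6 spans chrX:141165403-141474076 on the minus strand and Col4a5 spans chrX:141475385-141689234 on the plus strand, with 1308 bases between them. The sequences below are RefSeq sequences of build GRCm38.p6 written 5′ to 3′, with matches to GGGCGG (the letters of a GC box) or CCAAT in capitals, on either strand. The first covers both starts of the Col4a1 and Col4a2 pair (chr8:11312801-11312830, plus strand). The second is the whole stretch between Col4a4 and Col4a3 (chr1:82586850-82586920, plus strand). The others are the bases before Col4a6 (chrX:141474077-141474326, minus strand) and before Col4a5 (chrX:141475169-141475384, plus strand).
Col4a1 and Col4a2 start sites: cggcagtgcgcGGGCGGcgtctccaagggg
between Col4a4 and Col4a3: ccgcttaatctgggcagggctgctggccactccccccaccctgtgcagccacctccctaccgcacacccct
upstream of Col4a6: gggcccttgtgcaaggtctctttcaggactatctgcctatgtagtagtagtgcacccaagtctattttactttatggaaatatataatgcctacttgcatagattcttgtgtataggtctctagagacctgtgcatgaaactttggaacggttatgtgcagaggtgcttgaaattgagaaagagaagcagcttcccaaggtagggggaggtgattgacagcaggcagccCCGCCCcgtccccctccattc
upstream of Col4a5: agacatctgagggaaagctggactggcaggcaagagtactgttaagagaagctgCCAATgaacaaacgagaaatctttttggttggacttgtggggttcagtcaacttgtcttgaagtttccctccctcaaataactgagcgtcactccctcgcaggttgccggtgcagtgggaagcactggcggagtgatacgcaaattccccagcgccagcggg

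The RefSeq promoter table held a window of 300 bases (250 before to 50 after the start) for 5 of the 6 chains, all but Col4a3. Over both strands, GGGCGG matched 1 time in the window of Col4a1, 3 times in that of Col4a2, 1 time each in those of Col4a5 and Col4a6, and 0 times in that of Col4a4. GGGCGG was found in 35.7% of all 32851 windows. CCAAT matched 1 time each in the windows of Col4a1, Col4a2 and Col4a5 and 0 times in those of Col4a4 and Col4a6, against 37.4% of all windows. TATAAA, the core of a TATA box, matched in none of the 5 windows and in 13.6% of all windows. These matches describe the letters and are no evidence of a bound factor.

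The libraries held 16687509 to 30587890 counts. The 6 chains together took 0.318% to 0.587% of the counts of a library. Col4a1 to Col4a5 had between 1487 and 53452 counts in every library, while Col4a6 had between 20 and 678, so counting error bears mainly on Col4a6. The titles carry a 6-digit code of unstated meaning, shared by libraries of different genotypes, and WT has no library under the code of replicate 2 of LCDD and DH-LMP2A. Same-code libraries deviated together, so each comparison was also fitted with the code as a block. Podocyte, mesangial and endothelial markers were present in all libraries (10 of 10, 7 of 7 and 10 of 10 genes above 3 counts in every library). The podocyte markers summed to 7779 CPM (counts scaled by library size with TMM factors) in LCDD replicate 1 and to 14316 CPM in LCDD replicate 2, against 16176 to 35632 CPM in the other 11 libraries. LCDD replicate 1 stands apart, while LCDD replicate 2 is the next lowest and close to WT replicate 1 (16176 CPM) and DH-LMP2A replicate 1 (17564 CPM). The LCDD comparisons are also given without both, an alternative added after the data were seen that leaves 2 LCDD libraries.

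TPM values, which divide the counts by exon length before scaling, put the chains on one scale. In WT the mean TPM levels were 575 ± 129 for Col4a1, 544 ± 206 for Col4a3, 388 ± 83.9 for Col4a2, 301 ± 105 for Col4a4, 121 ± 45.2 for Col4a5 and 8.18 ± 4.83 for Col4a6 (SD, n = 5). The ranges of neighbours in this order overlapped for every step except that from Col4a5 to Col4a6. In DH-LMP2A the order was Col4a3 (597 ± 248 TPM), Col4a4 (329 ± 128), Col4a1 (313 ± 47.6), Col4a2 (220 ± 45.3), Col4a5 (139 ± 60.1) and Col4a6 (0.709 ± 0.257; SD, n = 4). In LCDD the alpha1 and alpha2 chains led, with 628 ± 168 TPM for Col4a1 and 455 ± 116 for Col4a2, before Col4a3 at 378 ± 288, Col4a4 at 225 ± 176, Col4a5 at 95.5 ± 72.5 and Col4a6 at 1.06 ± 0.793 (SD, n = 4). The summed TPM of the 6 chains was 1782 ± 337 in LCDD, 1599 ± 354 in DH-LMP2A and 1938 ± 503 in WT, with overlapping ranges.

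**Figure D1:**
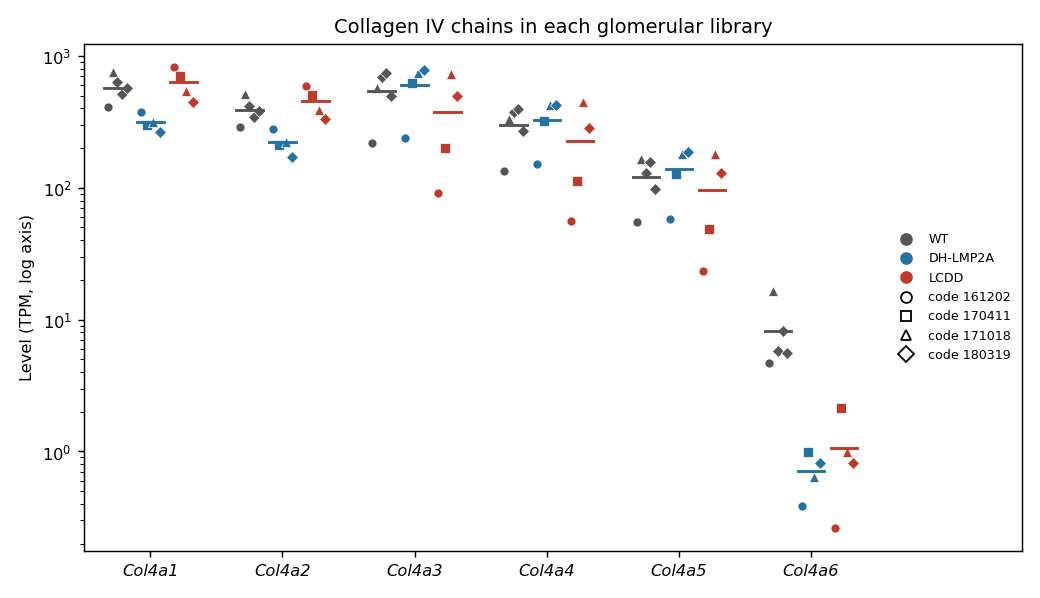
Level of each collagen IV chain in each of the 13 libraries, in TPM on a log axis. Points are libraries, colours are genotypes, marker shapes are the 6-digit title codes and horizontal bars are genotype means. Col4a1 and Col4a2 are lowest in DH-LMP2A, Col4a3 to Col4a5 spread widely in LCDD, and Col4a6 is 4.72 to 16.5 TPM in WT against 0.263 to 2.15 TPM in the other 8 libraries.

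Col4a1 and Col4a2, the widespread pair, were at about 2.1-fold higher levels in LCDD than in DH-LMP2A. In LCDD replicates 1 to 4, Col4a1 was at 2051, 1560, 1073 and 914 CPM, and in DH-LMP2A replicates 1 to 4 it was at 908, 591, 621 and 518 CPM. In WT replicates 1 to 5 it was at 1015, 1638, 1320, 1045 and 1180 CPM. Every LCDD and every WT library was above every DH-LMP2A library, although the lowest LCDD library exceeded the highest DH-LMP2A library by less than 1%. Col4a2 had the same order: 1430, 1088, 751 and 660 CPM in LCDD, 654, 405.5, 424 and 325 CPM in DH-LMP2A, and 689, 1077, 849, 681 and 766 CPM in WT. Of all genes tested, 4.74% were higher in LCDD than in DH-LMP2A without overlap, and 2.33% were lower in DH-LMP2A than in WT without overlap.

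The difference of Col4a1 between LCDD and DH-LMP2A was 1.09 ± 0.27 on the log2 scale (SE; 95% interval 0.50 to 1.68), with an adjusted p of 0.0646 by edgeR's quasi-likelihood test. For Col4a2 it was 1.12 ± 0.28 (0.52 to 1.72), with an adjusted p of 0.0610. Neither passed the threshold of 0.05, which 2.00% of all genes tested passed in this comparison. With the title code as a block the differences were 1.07 ± 0.24 and 1.11 ± 0.23, the adjusted p-values of the same edgeR test were 0.0305 and 0.0235, and both genes passed, as did 6.10% of all genes tested (3.24% as higher in LCDD). Within the 4 codes, Col4a1 was higher in LCDD by 1.18, 1.40, 0.79 and 0.82 on the log2 scale, and Col4a2 by 1.13, 1.42, 0.83 and 1.02. Without LCDD replicate 1 alone the differences were 0.84 ± 0.25 and 0.88 ± 0.26 (SE; adjusted p 0.183 and 0.173, edgeR). Without LCDD replicates 1 and 2 they were 0.57 ± 0.26 and 0.62 ± 0.27 (SE), with edgeR adjusted p-values of 0.636 and 0.616, where the range over all alternatives was 0.00335 to 0.636 for Col4a1 and 0.0034 to 0.616 for Col4a2.

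Against WT, the same pair was lower in DH-LMP2A and near the WT level in LCDD. In DH-LMP2A against WT the log2 difference was -0.91 ± 0.26 for Col4a1 (95% interval -1.48 to -0.35; adjusted p 0.165, edgeR) and -0.84 ± 0.26 for Col4a2 (-1.41 to -0.27; adjusted p 0.200, edgeR), and 0.627% of all genes tested passed (0.352% as lower in DH-LMP2A). With the block the differences were -1.09 and -1.05, with adjusted p-values of 0.0466 and 0.0470 in edgeR, and 3.36% of all genes tested passed (1.58% as lower in DH-LMP2A). Within the 3 codes that hold both genotypes, Col4a1 differed by -0.16, -1.40 and -1.18, so the code of replicate 1 showed little difference. In LCDD against WT the log2 difference was 0.17 ± 0.26 for Col4a1 (-0.38 to 0.73; adjusted p 0.902, edgeR) and 0.27 ± 0.26 for Col4a2 (-0.28 to 0.83; adjusted p 0.803, edgeR). Without LCDD replicates 1 and 2 these became -0.34 and -0.23, and within codes Col4a1 differed by 1.01, -0.61 and -0.36. The 3 comparisons share libraries, so their values are not independent of each other.

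**Figure D2:**
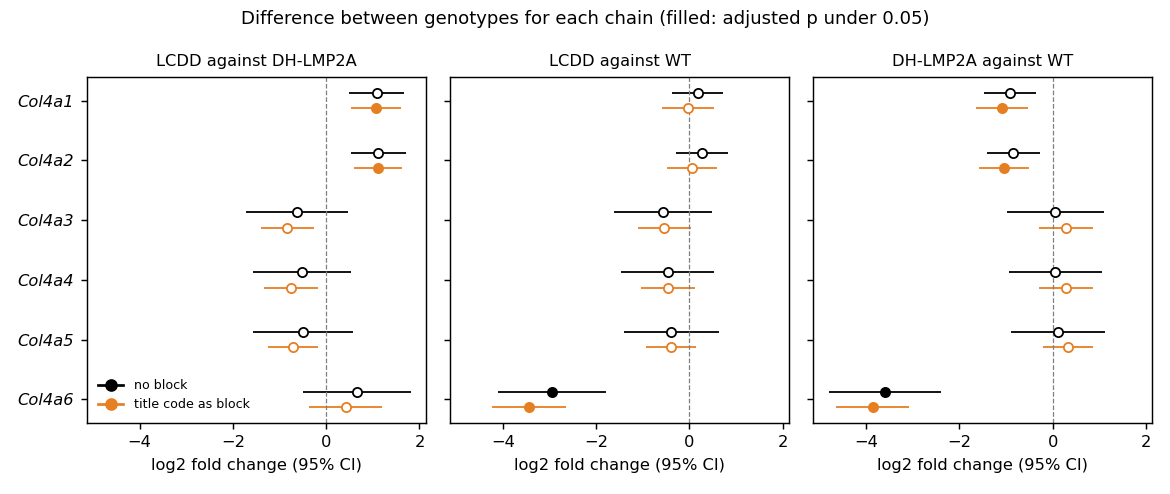
Difference between genotypes for each chain as log2 fold change with its 95% interval, in LCDD against DH-LMP2A, LCDD against WT and DH-LMP2A against WT. Black is the fit without a block, orange the fit with the title code as a block, and filled points passed an adjusted p of 0.05. Col4a1 and Col4a2 are filled with the block in the comparisons with DH-LMP2A, and Col4a6 is filled in both comparisons with WT.

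Some mesangial markers rose in LCDD against DH-LMP2A, while no endothelial marker passed in that comparison. In bulk glomeruli, more cells of a type and more RNA per cell cannot be told apart. Of 7 mesangial markers tested, 3 rose in LCDD against DH-LMP2A and none fell, where 218 of all 16738 genes tested rose. The median log2 difference of the list was 0.88, beside -0.01 over all genes tested. Serpine2 rose by 1.29 ± 0.30 (adjusted p 0.0446), Sfrp2 by 1.01 ± 0.23 (0.0395) and Art3 by 0.97 ± 0.19 (0.0196; SE, edgeR). In LCDD against WT, where Col4a1 and Col4a2 did not pass, Art3 was the only mesangial marker that rose, by 1.12 ± 0.18 (SE; adjusted p 0.00636, edgeR; 0.0750 without LCDD replicates 1 and 2). The summed level of the mesangial list was 4189 to 7850 CPM in LCDD, 2776 to 3787 CPM in DH-LMP2A and 3399 to 4235 CPM in WT, and no gene of it was at 0. Endothelial markers summed to 9125 to 19990 CPM in LCDD, 8249 to 14874 CPM in DH-LMP2A and 13467 to 19270 CPM in WT. Their median log2 difference in LCDD against DH-LMP2A was 0.46, beside -0.01 over all genes tested. None of 10 passed in any comparison without the block. With the block, 3 of 10 were lower in DH-LMP2A than in WT, where 1.58% of all genes tested passed as lower. Over the 13 libraries, the mean log2 CPM of the mesangial markers correlated with Col4a1 (Pearson r = 0.807, permutation p 0.0009; Spearman rho = 0.797, p 0.00163) and with Col4a2 (r = 0.844, p 0.00039; rho = 0.802, p 0.00149). These p-values, adjusted over 48 relations of 8 marker lists with 6 chains, were 0.00864 and 0.00468 for r and 0.0188 for both rho. The permutations took no account of genotype or title code. Without LCDD replicates 1 and 2, r was 0.664 and 0.721, and on deviations from the genotype means it was 0.802 and 0.814. The endothelial markers gave r = 0.727 with Col4a1 (permutation p 0.00549, adjusted 0.022) and 0.715 with Col4a2 (p 0.00626, adjusted 0.0231). Their rho was 0.621 (p 0.0276, adjusted 0.051) and 0.676 (p 0.0142, adjusted 0.0379). On deviations from the genotype means, the endothelial r was 0.682 and 0.708. The macrophage markers gave r = 0.751 with Col4a1 (permutation p 0.00289, adjusted 0.0179) and rho = 0.758 (p 0.00408, adjusted 0.0245), with r = 0.706 without LCDD replicate 1 and WT replicate 2. Taken relative to the mesangial markers, Col4a1 was at a log2 difference of 1.22 ± 0.37 in LCDD, 0.91 ± 0.16 in DH-LMP2A and 1.57 ± 0.20 in WT (SD, n = 4, 4 and 5), and the LCDD range of 0.70 to 1.52 overlapped that of DH-LMP2A, 0.82 to 1.16, while the WT range of 1.39 to 1.86 did not overlap that of DH-LMP2A. Relative to the endothelial markers, Col4a1 was at 0.26 to 0.89 in LCDD, -0.29 to 0.10 in DH-LMP2A and -0.19 to 0.85 in WT, so LCDD and DH-LMP2A did not overlap on this scale. The ranges of Col4a2 overlapped, or did not, in the same pairs of genotypes on both of these relative scales. How many of all genes tested lack overlap on these scales was not computed. On plain log2 CPM, 4.74% were higher in LCDD than in DH-LMP2A without overlap. None of the 7 mesangial markers passed in LCDD against DH-LMP2A without LCDD replicates 1 and 2, with 0.86 ± 0.27 for Serpine2, 0.72 ± 0.25 for Sfrp2 and 0.86 ± 0.23 for Art3 (SE; adjusted p 0.308, 0.392 and 0.204, edgeR). The part of cell composition in the Col4a1 and Col4a2 results was not tested beyond these values.

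Col4a3, Col4a4 and Col4a5, the chains of the podocyte-made network, spread over 6.2-fold to 6.3-fold within LCDD and did not differ between genotypes at the threshold. Col4a3 was at 335, 645, 2106 and 1480 CPM in LCDD replicates 1 to 4, at 845, 1804, 2156 and 2242 CPM in DH-LMP2A replicates 1 to 4, and at 791, 1815, 2108, 2217 and 1516 CPM in WT replicates 1 to 5. LCDD replicates 1 and 2 were the lowest of all 13 libraries, LCDD replicate 3 was among the higher ones, and the library of replicate 1 was the lowest of its genotype in all 3 genotypes. Col4a4 followed with 218, 387, 1374 and 910 CPM in LCDD, 566, 985, 1297 and 1293 CPM in DH-LMP2A, and 516, 1117, 1216, 1256 and 879 CPM in WT. Col4a5 was at 57.1, 106, 353 and 262 CPM in LCDD, at 137, 251, 353 and 363 CPM in DH-LMP2A, and at 135, 355, 269, 315 and 202 CPM in WT.

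In LCDD against DH-LMP2A the log2 differences were -0.63 ± 0.51 for Col4a3 (95% interval -1.72 to 0.47), -0.52 ± 0.49 for Col4a4 (-1.57 to 0.53) and -0.51 ± 0.50 for Col4a5 (-1.58 to 0.57; SE). Their edgeR adjusted p-values were 0.673, 0.725 and 0.740. With the block, the differences were -0.83 ± 0.26, -0.75 ± 0.26 and -0.72 ± 0.24, and the edgeR adjusted p-values were 0.0840, 0.115 and 0.113. Within codes, Col4a3 differed by -1.34, -1.48, -0.03 and -0.60, so the 2 codes with the low LCDD libraries carried most of the difference. Without those libraries the differences were 0.02 ± 0.43, 0.13 ± 0.38 and 0.15 ± 0.40 for Col4a3, Col4a4 and Col4a5 (SE). In LCDD against WT the differences were -0.57 for Col4a3, -0.46 for Col4a4 and -0.39 for Col4a5, with edgeR adjusted p-values of 0.768, 0.820 and 0.861, and without LCDD replicates 1 and 2 they were 0.06, 0.17 and 0.24. In DH-LMP2A against WT they were 0.06, 0.05 and 0.11, with 95% intervals of -0.97 to 1.10, -0.94 to 1.05 and -0.90 to 1.13, so changes of up to about 2-fold in either direction were within the error.

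These 3 chains moved with the podocyte markers from library to library. The mean log2 CPM of 10 podocyte markers correlated with Col4a3 at r = 0.969 (rho = 0.874), with Col4a4 at r = 0.974 (rho = 0.791) and with Col4a5 at r = 0.967 (rho = 0.879) over 13 libraries. The permutation p-values of r were 1e-05, 1e-05 and 2e-05, of which 1e-05 is the smallest that 100000 permutations give, and 0.00024, 0.00024 and 0.00032 after adjustment over the 48 relations. Those of rho were 0.0002, 0.00196 and 0.00014 (adjusted 0.0048, 0.0188 and 0.0048). Without LCDD replicates 1 and 2, r was 0.902, 0.914 and 0.902, and on deviations from the genotype means it was 0.976, 0.983 and 0.985. Relative to the podocyte markers, the SD of Col4a3 among LCDD libraries was 0.21 on the log2 scale, against 1.20 for its own log2 CPM. The podocyte list itself summed to 7779 to 33184 CPM in LCDD, 17564 to 33502 CPM in DH-LMP2A and 16176 to 35632 CPM in WT, with none of its 10 genes at 0. Of these 10 markers, none passed in LCDD against DH-LMP2A without the block. With the block 2 passed as lower, where 478 of all 16738 genes tested did. Nphs1 (nephrin, a slit diaphragm protein) was among them, at -0.93 on the log2 scale (adjusted p 0.0384, edgeR). Without LCDD replicates 1 and 2, and without the block, the Nphs1 difference was -0.08 ± 0.47 (SE). Ptpro, a receptor tyrosine phosphatase of podocytes, differed by -2.13 ± 0.41 in LCDD against WT (SE; adjusted p 0.0176, edgeR; -1.70 and 0.137 without LCDD replicates 1 and 2), and it was the only marker of the list that passed in that comparison, with or without the block.

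**Figure D3:**
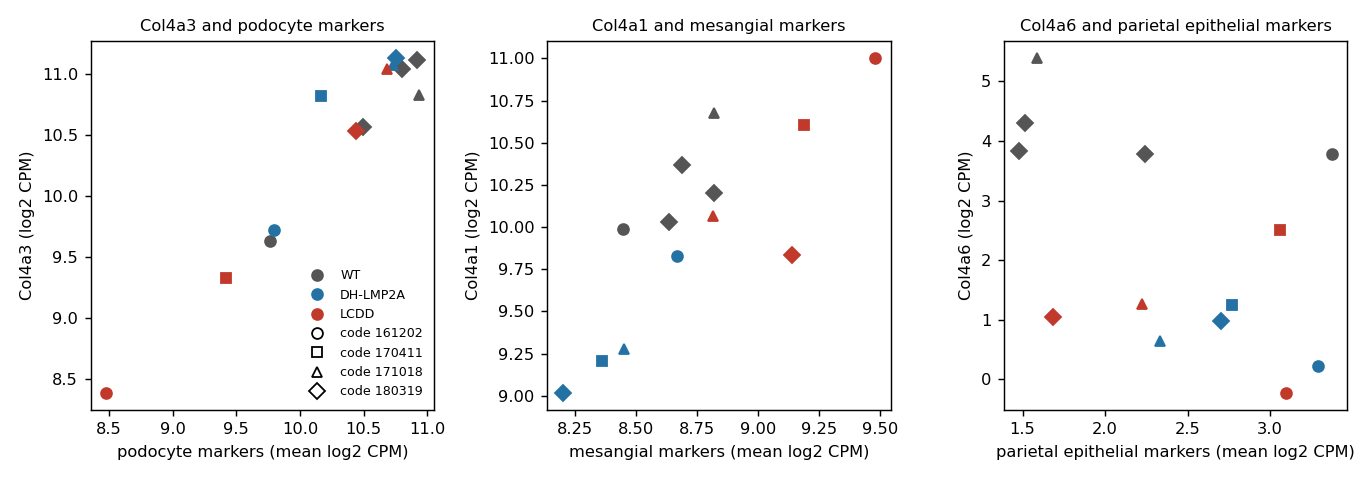
Chains against cell type markers in the 13 libraries, as log2 CPM of the chain (vertical) against mean log2 CPM of the marker list (horizontal): Col4a3 with podocyte markers (r = 0.969), Col4a1 with mesangial markers (r = 0.807) and Col4a6 with parietal epithelial markers. Colours are genotypes and marker shapes are title codes. Col4a3 follows the podocyte markers in all 3 genotypes, with LCDD replicates 1 and 2 at the lower left, while the WT libraries lie above the others for Col4a6 at any marker level.

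Chains of one network stayed in close proportion, but for Col4a3, Col4a4 and Col4a5 this was not particular to the network. The 3 nearest genes outside the family, given below, correlated with each of these at r of 0.989 or more. Col4a1 and Col4a2 correlated at r = 0.994 and rho = 0.989 over the 13 libraries, Col4a3 and Col4a4 at r = 0.996 and rho = 0.923, Col4a3 and Col4a5 at r = 0.979 and rho = 0.890, and Col4a4 and Col4a5 at r = 0.986 and rho = 0.912. Each permutation p of r was 1e-05, the smallest that 100000 permutations give, and 3.75e-05 after adjustment over the 15 pairs of chains. The p-values of rho were 1e-05, 2e-05, 0.00011 and 7e-05 (adjusted 0.00015, 0.00015, 0.000412 and 0.00035). Leaving out the 2 libraries farthest from the median, r was 0.993, 0.989, 0.938 and 0.960, and within genotypes it was 0.992, 0.995, 0.978 and 0.985. The TPM of Col4a1 was 1.35 to 1.55 times that of Col4a2 in all 13 libraries, that of Col4a3 was 1.59 to 1.95 times that of Col4a4, and that of Col4a4 was 1.99 to 2.86 times that of Col4a5. The log2 ratio of Col4a1 to Col4a2 was 0.46 ± 0.02 in LCDD (SD, n = 4), 0.52 ± 0.08 in DH-LMP2A (n = 4) and 0.57 ± 0.03 in WT (n = 5), and the LCDD and WT ranges of 0.43 to 0.48 and 0.52 to 0.59 did not overlap. These ratios were given no test, and reads in the 22 bases that Col4a1 and Col4a2 share cannot be assigned to one gene without strand.

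Between the networks the relation was inverse, and over all libraries its size rested on a pair of them. Col4a1 and Col4a3 correlated at r = -0.567 (permutation p 0.0421, adjusted 0.0745) and rho = -0.423 (p 0.15, adjusted 0.274), and r was -0.24 without LCDD replicate 1 and DH-LMP2A replicate 4. Col4a2 and Col4a3 gave r = -0.610 (permutation p 0.0267, adjusted 0.0734) and rho = -0.505 (p 0.0801, adjusted 0.24), and r was -0.31 without the same libraries. Neither passed after adjustment. On deviations from the genotype means, r was -0.65 for Col4a1 with Col4a3 and -0.68 for Col4a2 with Col4a3, and on deviations from genotype and title code it was -0.67 and -0.64, each given without a test.

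The balance of the networks was taken as the summed TPM of Col4a1 and Col4a2 over that of Col4a3, Col4a4 and Col4a5. In LCDD replicates 1 to 4 this ratio was 8.26, 3.36, 0.689 and 0.856, in DH-LMP2A replicates 1 to 4 it was 1.46, 0.475, 0.397 and 0.312, and in WT replicates 1 to 5 it was 1.71, 1.18, 0.879, 0.661 and 1.09. LCDD replicates 1 and 2 were the highest of all libraries, 3 of the 4 DH-LMP2A libraries were the lowest, and the ranges of the genotypes overlapped. On the log2 scale the means were 1.01 ± 1.69 in LCDD, -0.88 ± 0.99 in DH-LMP2A and 0.07 ± 0.51 in WT (SD, n = 4, 4 and 5). LCDD exceeded DH-LMP2A by 1.89, and within the 4 codes by 2.50, 2.82, 0.80 and 1.46, so the ratio was higher in LCDD in each pair of libraries. Leaving out LCDD replicate 1 alone gave 1.21 against DH-LMP2A and 0.26 against WT. When both of these LCDD libraries were left out, the mean difference from DH-LMP2A was 0.50, and that from WT was -0.45. Against WT, the LCDD difference of 0.94 had no common direction within codes (2.27, -0.78 and -0.005), while DH-LMP2A was lower by -0.22, -1.58 and -1.46. As a share of all collagen IV TPM, Col4a1 and Col4a2 made up 23.7% to 51.9% and 17.1% to 37.3% in LCDD libraries, 14.4% to 34.1% and 9.33% to 25.3% in DH-LMP2A libraries, and 23.7% to 37.0% and 15.9% to 25.8% in WT libraries. The ratio was given no test of its own.

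**Figure D4:**
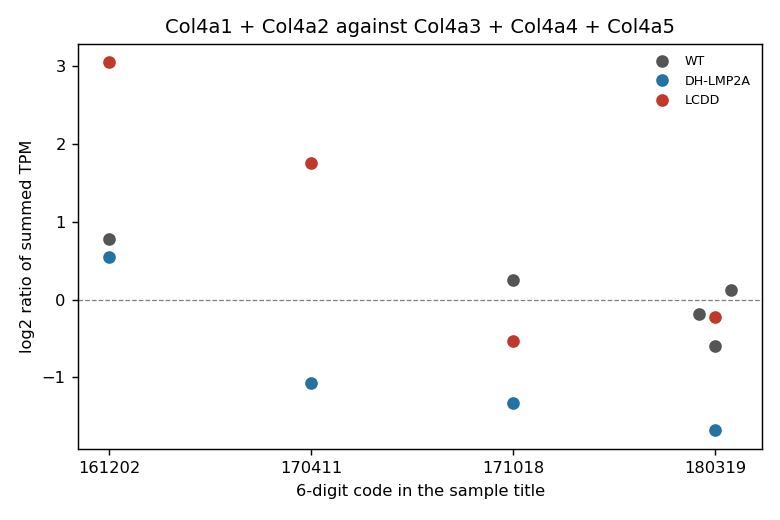
Balance of the collagen IV networks in each library, as the log2 ratio of the summed TPM of Col4a1 and Col4a2 to that of Col4a3, Col4a4 and Col4a5, by the 6-digit code in the sample title. Points are libraries, colours are genotypes and the dashed line is equal TPM. Under each code the LCDD library lies above the DH-LMP2A library, and the values run from -1.68 to 3.05.

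Col4a6, the chain of Bowman's capsule and other membranes, was far lower in both other genotypes than in WT. It was at 13.7, 41.9, 14.2, 19.6 and 13.7 CPM in WT replicates 1 to 5, at 0.767, 5.57, 2.32 and 1.97 CPM in LCDD replicates 1 to 4, and at 1.09, 2.30, 1.48 and 1.88 CPM in DH-LMP2A replicates 1 to 4. All WT libraries were above all of the others, and WT replicate 2 was the highest. The counts behind these values were 337 to 678 in WT, 20 to 148 in LCDD and 26 to 62 in DH-LMP2A. Of all genes tested, 1.63% were lower in LCDD than in WT without overlap and 0.454% had all WT libraries above the 8 others. The log2 difference from WT was -2.95 ± 0.53 in LCDD (SE; 95% interval -4.10 to -1.79; adjusted p 0.0124, edgeR) and -3.60 ± 0.56 in DH-LMP2A (-4.80 to -2.40; adjusted p 0.0132, edgeR), a 7.72-fold and a 12.1-fold lower level. The LCDD difference without LCDD replicates 1 and 2 was -3.28 (adjusted p 0.0239, edgeR). In these comparisons 1.84% and 0.627% of all genes tested passed, and 0.544% and 0.352% passed as lower than WT. Col4a6 was the only chain that passed in either comparison without the block. Between LCDD and DH-LMP2A it differed by 0.65 ± 0.53 (-0.50 to 1.81; adjusted p 0.677, edgeR), and by -0.03 without LCDD replicate 2.

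The lower level of Col4a6 against WT held in direction under all alternatives, while its call was lost under some. Within the 3 codes, LCDD was lower than WT by -4.01, -4.13 and -2.93 on the log2 scale, and DH-LMP2A by -3.55, -4.74 and -3.00. With the block, edgeR gave adjusted p-values of 0.00124 and 0.00074, where 3.20% of all genes tested passed in LCDD against WT (1.15% as lower) and 3.36% in DH-LMP2A against WT. Without the 3 single-mouse WT libraries, LCDD against WT was at -3.40 with an adjusted p of 0.0812 in edgeR, over alternatives that ran from 3.51e-07 (DESeq2) to 0.0812. Without DH-LMP2A replicate 2 or 3, DH-LMP2A against WT was at -3.81 or -3.55 with an adjusted p of 0.0520 or 0.0617 in edgeR, over alternatives from 2.98e-10 (DESeq2) to 0.0617.

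**Figure D5:**
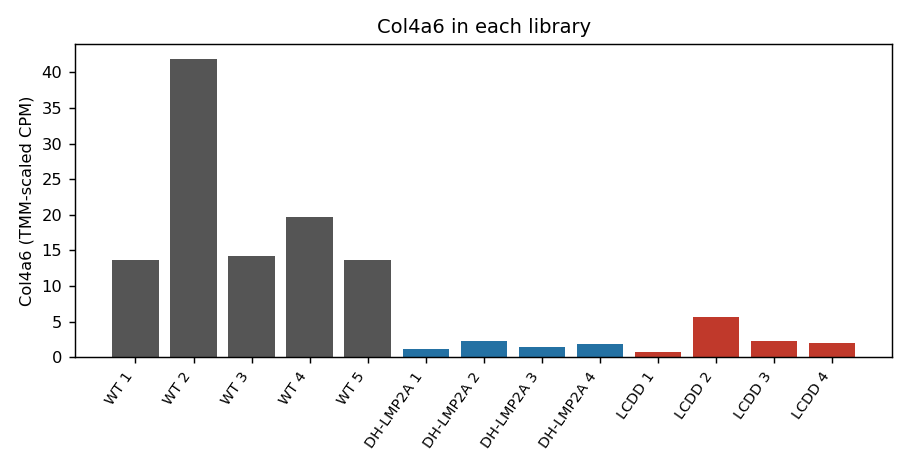
Col4a6 in each of the 13 libraries, in TMM-scaled CPM on an axis that starts at 0, coloured by genotype. The 5 WT libraries are at 13.7 to 41.9 CPM and the 8 others at 0.767 to 5.57 CPM.

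Sex-linked genes and tubular and parietal markers were set beside this result, and their ranges overlapped between WT and the other libraries. For Ddx3y the overlap came only from WT replicate 2, and for the summed parietal markers only from WT replicate 1. Col4a6 lies on the X chromosome, and the sexes of the mice are not given in the labels. Ddx3y, a gene of the Y chromosome, had 0, 1, 0 and 0 counts in WT replicates 1, 3, 4 and 5 and was at 12.2 CPM in WT replicate 2, while the other 8 libraries were at 8.20 to 100 CPM. Xist, the RNA that coats the inactive X chromosome of females, was at 557 to 1654 CPM in WT and at 0.485 to 1001 CPM in the others. By Ddx3y, the WT libraries other than replicate 2 stood apart from the other 8 libraries, so sex and genotype cannot be told apart here. The part of sex in the Col4a6 difference was not tested beyond the covariate that follows. With Xist as a covariate, Col4a6 was at -2.89 in LCDD against WT (adjusted p 0.0620, edgeR) and at -3.56 in DH-LMP2A against WT (adjusted p 0.0351, edgeR). The parietal epithelial markers, for the cells of Bowman's capsule, summed to 24.9 to 87.5 CPM in WT, 33.9 to 83.7 CPM in LCDD and 43.8 to 81.2 CPM in DH-LMP2A, with none of 6 genes at 0 and none of 6 passing in any comparison. Proximal tubule markers summed to 98.9 to 2780 CPM in WT, 334 to 1416 CPM in LCDD and 436 to 2597 CPM in DH-LMP2A, and with these markers as a covariate Col4a6 was at -2.77 (adjusted p 0.0255) and -3.39 (adjusted p 0.0128, edgeR). Col4a6 did not follow its pair partner: the TPM of Col4a5 was 10.1 to 22.5 times that of Col4a6 in WT, 130 to 282 times in DH-LMP2A and 22.7 to 181 times in LCDD. The WT libraries form a cluster of their own for Col4a6, so no pooled correlation with the marker lists is given, and 5 libraries are too few for one within it.

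Genes outside the family were ranked by Pearson correlation of log2 CPM with each chain over the 13 libraries, over the 10879 genes whose mean reached 5 CPM, as a description without a test. Nearest to Col4a1 were Ifi44 (r = 0.948), Tsnax (0.937) and Itga9 (0.937, an integrin subunit), and nearest to Col4a2 were Itga9 (0.947), Pard6g (0.944) and AI607873 (0.943). All of these were below the r of 0.994 between the 2 chains. Nearest to Col4a3 were Dock5 (0.990), Epb41l5 (0.990) and Npnt (0.989, nephronectin, a basement membrane protein), and nearest to Col4a4 were Pde4dip (0.992), Dock5 (0.990) and Npnt (0.989). The genes nearest to Col4a3 and Col4a4 were below the r of 0.996 between these chains. Nearest to Col4a5 were Vegfa (0.994, the endothelial growth factor made by podocytes), Nphs1 (0.990) and Disp1 (0.990). These were among 8 genes outside the family that were closer to Col4a5 than its nearest chain, Col4a4 (r = 0.986). Nearest to Col4a6 were Nxpe4, Vapb and Igha (the immunoglobulin A heavy chain). Their pooled r is left out because the WT libraries form a separate cluster, and on deviations from the genotype means r was 0.54, 0.72 and -0.005.

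Among 19 genes of collagen assembly and crosslinking, 18 were tested, and in LCDD against DH-LMP2A none rose or fell without the block (median log2 difference 0.12, beside -0.01 over all genes tested). P3h3, a prolyl 3-hydroxylase, was at 108 ± 27.0 CPM in LCDD and 63.2 ± 8.37 CPM in DH-LMP2A (adjusted p 0.0918, edgeR), and Crtap, a cofactor of prolyl 3-hydroxylation, at 115 ± 20.3 and 74.7 ± 16.0 CPM (0.0847 without and 0.0258 with the block). The collagen chaperone Serpinh1 (HSP47) differed by 0.48 ± 0.22 in LCDD against DH-LMP2A (adjusted p 0.365) and by 0.68 ± 0.20 in LCDD against WT (0.139 without and 0.0385 with the block; SE, edgeR). Colgalt2, a collagen galactosyltransferase, was lower in DH-LMP2A (72.5 ± 15.1 CPM) than in WT (124 ± 6.16 CPM), by -0.77 ± 0.12 on the log2 scale (SE; adjusted p 0.0157, edgeR), and was the only gene of the list to pass in that comparison. Pxdn, the peroxidase that forms the sulfilimine bond between protomers, was at 271 CPM in LCDD and 229 CPM in DH-LMP2A (adjusted p 0.706, edgeR).

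Of 18 other basement membrane genes, 17 were tested, and 2 rose in LCDD against DH-LMP2A: the nidogens, which link the laminin and collagen IV networks. In this comparison 218 of all 16738 genes tested rose. Nid1 was at 611 ± 197 CPM in LCDD and 324 ± 61.5 CPM in DH-LMP2A, a log2 difference of 0.92 ± 0.21 (SE; adjusted p 0.0448, edgeR). Nid2 was at 153 ± 38.7 CPM in LCDD, 84.8 ± 11.7 CPM in DH-LMP2A and 91.2 ± 8.30 CPM in WT, and rose in LCDD by 0.85 ± 0.17 (adjusted p 0.0219) and by 0.75 ± 0.16 against WT (adjusted p 0.0280; SE, edgeR). Neither passed without LCDD replicates 1 and 2, with 0.56 ± 0.20 for Nid1 and 0.51 ± 0.15 for Nid2 in LCDD against DH-LMP2A (SE; adjusted p 0.421 and 0.277, edgeR). The median of the list in LCDD against DH-LMP2A was 0.01 beside -0.01 over all genes tested. Chains of the mature glomerular laminin did not pass: Lama5 differed by -0.29 (adjusted p 0.715) and Lamb2 by -0.34 (adjusted p 0.560, edgeR). With the block 3 genes were higher and 1 lower, the further ones being Col15a1 (0.96, adjusted p 0.0318) and Lamc3 (-1.41, adjusted p 0.0264, edgeR). Without LCDD replicates 1 and 2, and without the block, Col15a1 differed by 0.11 ± 0.485 and Lamc3 by -1.21 ± 0.57 (SE), and neither passed. Of all genes tested, 6.10% passed with the block.

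All 10 collagen IV receptors of the list were tested, and none passed in any comparison without the block, with a median log2 difference of 0.47 in LCDD against DH-LMP2A, beside -0.01 over all genes tested. With the block, 2 of the 10 were higher in LCDD than in DH-LMP2A and 0 were lower, where 3.24% of all genes tested passed as higher. They were the subunits of integrin alpha1 beta1: Itga1 was at 196 ± 32.4 and 125 ± 19.1 CPM (adjusted p 0.131 without and 0.0159 with the block), and Itgb1 at 1942 ± 378 and 1239 ± 147 CPM (0.0910 without and 0.0272 with it, edgeR). Without LCDD replicates 1 and 2, and without the block, Itga1 differed by 0.69 ± 0.24 and Itgb1 by 0.51 ± 0.195 (SE; adjusted p 0.42 and 0.485, edgeR). Ddr2, a collagen-binding receptor kinase, was at 77.9 ± 18.5 CPM in LCDD and 52.0 ± 5.32 CPM in DH-LMP2A (adjusted p 0.120 without and 0.0656 with the block, edgeR).

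Of 12 genes of collagen IV proteolysis, 10 were tested, with a median log2 difference of 0.75 in LCDD against DH-LMP2A, beside -0.01 over all genes tested. Mmp12, a macrophage metalloproteinase, was the only one to rise (adjusted p 0.0322, edgeR; 0.308 without LCDD replicates 1 and 2), at 0.819 ± 0.597 CPM in LCDD, 0.0908 ± 0.0653 CPM in DH-LMP2A and 0.835 ± 0.345 CPM in WT. The DH-LMP2A level is near the floor of 3 counts, so no fold is given. Macrophage markers summed to 115 to 305 CPM in LCDD, 90.5 to 262 CPM in DH-LMP2A and 110 to 453 CPM in WT, and their part in this result was not tested. Mmp14, a membrane-bound collagenase, was at 95.6 ± 15.6 CPM in LCDD and 57.9 ± 4.89 CPM in DH-LMP2A (adjusted p 0.0664 without and 0.0438 with the block), and the gelatinase Mmp2 at 145 and 80.0 CPM (0.177 and 0.114, edgeR).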

How the data were processed

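The authors deposited one table of raw counts per gene with exon positions and the summed exon length, made with featureCounts per the file headers. The submitters' processing notes name STAR 2.4.0a, featureCounts, Subread 1.5.0-p3, DESeq2 and the builds mm10 and GRCm38. Per the labels' protocols the libraries were stranded and made from poly(A) RNA. The strand setting of the counting, the treatment of reads that match several places and the annotation release are not given in the sources used here. All 13 count columns carry a sample's title, and 0 were left over. Where counting ignored strand, reads in the 22 bases shared by Col4a1 and Col4a2, or in the 563 exon bases of Col4a3 shared with the antisense gene C430014B12Rik (52 counts over all libraries, against 454992 for Col4a3), cannot be told apart. The spans of the 6 chains equal those of GENCODE M21 on GRCm38.

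Counts were filtered with filterByExpr of edgeR 4.0.16 in R 4.3.3 (minimum count 10, by genotype), which kept 16738 genes and dropped 30220, and scaled with TMM. One quasi-likelihood model (glmQLFit, glmQLFTest) with 1 coefficient per genotype was fitted to all 13 libraries, with Benjamini-Hochberg adjustment over all genes tested. A gene passed where the adjusted p was under 0.05, and "rose" and "fell" are used only of such genes. SE was obtained from the log2 fold change and the F statistic, as |log2 fold change| / sqrt(F). Values are TMM-scaled CPM, log2 CPM uses a prior count of 2, and TPM was computed from the counts and the deposited exon length. Correlations have two-sided permutation p-values from 100000 permutations. All 13 libraries were permuted freely, so these p-values take no account of libraries that deviate together by genotype or title code. The floor of 3 counts is 0.0981 to 0.180 CPM of the library total and covers counting error only, since the libraries have no molecular identifiers.

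The chains, gene lists and tests were chosen with earlier results of these data known. The genes named are the 6 chains, the 3 nearest genes to each, and the called or lowest-p genes of each list. Others (Serpinh1, Pxdn, Lama5, Lamb2, Lamc3 and Col15a1 in LCDD against DH-LMP2A, Itga1, Mmp14, Mmp2 and the cell type markers) were named after their values were seen. Mesangial markers had 7 of 8 genes in the table. The result of 1 further marker gene is not reported here. The labels do not say whether pools of one genotype share mice or litters. No pair of same-genotype libraries looked like one library (chi-square per degree of freedom at least 12.6 over 22 pairs).

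The title code was taken to pair libraries because libraries of one code departed together from the mean of their genotype, with a correlation over genes above 0.1 in each pair: 0.593, 0.153, 0.488 and 0.450 for LCDD with DH-LMP2A, 0.400, 0.127 and 0.304 for LCDD with WT, and 0.492, 0.160 and 0.458 for DH-LMP2A with WT. The same correlation was not computed between libraries of different codes, so whether it is particular to a shared code was not tested. The alternatives were DESeq2 1.42.0, RLE size factors, no filter, a mean of at least 5 CPM, only the genotypes compared, the code as block, leaving out the single-mouse libraries or each replicate, and podocyte markers, proximal tubule markers or Xist as covariate. Leaving out LCDD replicates 1 and 2 together was added after the data were seen. The tests were checked on simulated counts.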

Additional observations from a re-analysis of the deposited data

Results flagged for a closer look

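Within each genotype, the library with the largest gap to its neighbours was looked for in 42 groups of values (chains, ratios of chains and their sums). In 2 of them a library stood apart from the others of its genotype by Dixon's criterion, where chance gives about 2.1. The log2 ratio of Col4a1 to Col4a2 was 0.4277 in LCDD replicate 4, against 0.4716 to 0.4777 in the other LCDD libraries. The log2 ratio of Col4a3 to Col4a5 was 2.275 in DH-LMP2A replicate 2, against 2.043 to 2.059 in the other DH-LMP2A libraries. Both are small differences in ratio, and no reason for either was tested.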

How the results depend on the processing

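Fold changes were recomputed under each tool, filter, covariate, block and omission of libraries, and the balance under the block, each omission, the mean of log2 TPM and CPM without division by length. In all, 336 of the values kept their direction and their side of the threshold. Of the rest, 28 fold changes turned direction, all of them differences that did not pass under any setting, 17 passed where the value reported did not, 5 no longer passed, and 2 values of the balance moved by more than the pooled SD within genotypes of 1.12, one of them (LCDD against WT) with a turn of direction. Col4a1 and Col4a2 passed with DESeq2 in LCDD against DH-LMP2A (1.06 and 1.10, adjusted p 0.00335 and 0.0034) and in DH-LMP2A against WT (-0.92 and -0.85, adjusted p 0.0181 and 0.0454). They passed with the title code as replicate block (1.07 and 1.11, and -1.09 and -1.05), with proximal tubule markers as covariate in LCDD against DH-LMP2A (1.13 and 1.18, adjusted p 0.0258 and 0.022) and with podocyte markers as covariate in DH-LMP2A against WT (-1.03 and -0.98, adjusted p 0.0195 and 0.0255). Leaving out single replicates gave 0.84 to 1.28 for Col4a1 and 0.88 to 1.35 for Col4a2 in LCDD against DH-LMP2A, with passes in 2 and 3 of 8 fits (without LCDD replicate 4 or DH-LMP2A replicate 1, and for Col4a2 also without LCDD replicate 3). In DH-LMP2A against WT it gave -1.10 to -0.80 and -1.08 to -0.72, with no pass.

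Col4a6 in LCDD against WT did not pass without the single-mouse WT libraries (-3.40), with Xist as covariate (-2.89) or with podocyte markers as covariate (-2.54, adjusted p 0.0516), and leaving out single replicates gave -3.64 to -2.54 with a pass each time. In DH-LMP2A against WT single omissions gave -3.81 to -3.19. The replicate block changed no other call of the chains.

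Directions turned in LCDD against WT for Col4a1 with the replicate block (-0.023) and for Col4a5 with proximal tubule markers as covariate (0.044). With podocyte markers as covariate they turned for Col4a1 (-0.20), Col4a2 (-0.12), Col4a3 (0.17), Col4a4 (0.22) and Col4a5 (0.33). The podocyte markers include Ptpro, whose mean level was lower in LCDD and DH-LMP2A than in WT, so this covariate itself holds a difference between genotypes. In DH-LMP2A against WT directions turned with Xist as covariate for Col4a3 (-0.027) and Col4a4 (-0.042). Leaving out single replicates gave -0.068 to 0.33 for Col4a1 in LCDD against WT, -0.031 to 0.96 for Col4a6 in LCDD against DH-LMP2A, and -0.12 to 0.29, -0.11 to 0.26 and -0.047 to 0.34 for Col4a3, Col4a4 and Col4a5 in DH-LMP2A against WT. The cause was not tested. Without both LCDD libraries low in podocyte markers, directions also turned for Col4a3 (0.016), Col4a4 (0.13) and Col4a5 (0.15) in LCDD against DH-LMP2A and for Col4a1 (-0.34), Col4a2 (-0.23), Col4a3 (0.062), Col4a4 (0.17) and Col4a5 (0.24) in LCDD against WT, and the balance moved to 0.50 and -0.45. The balance of the networks ran from 1.21 to 2.41 in LCDD against DH-LMP2A without single replicates, and from 0.26 to 1.45 against WT.

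The number of all genes that passed was 334, 308 and 105 as reported (in LCDD against DH-LMP2A, LCDD against WT and DH-LMP2A against WT), 812, 726 and 458 with DESeq2, 1021, 536 and 562 with the replicate block, and 222, 50 and 68 without the single-mouse libraries. Without both low LCDD libraries it was 86 and 119 in the comparisons of LCDD, and over all alternatives it ran from 86 to 1021, from 50 to 726 and from 26 to 782. With 4 or 5 libraries per genotype and a spread of about 6.3-fold in LCDD, differences of Col4a3, Col4a4 and Col4a5 within the intervals given could not be detected. Depth limits only Col4a6, with as few as 20 counts.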

Other observations

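Outside the collagen IV system, Ren1 and Myh11 in LCDD against DH-LMP2A and Ptpro in DH-LMP2A against WT passed with the title code as a block and not without it. Of 5 markers of smooth muscle and renin cells, 2 passed as lower with the block in LCDD against DH-LMP2A, where 478 of all 16738 genes tested did. In DH-LMP2A against WT, 1.58% of all genes tested passed as lower with the block. Ren1, the renin gene of juxtaglomerular cells, was at 104 ± 58.0 CPM in LCDD and 377 ± 124 CPM in DH-LMP2A (SD, n = 4 each), a log2 difference of -1.87 ± 0.47 that did not pass without the title code as block (adjusted p 0.0631) and passed with it (-2.03, adjusted p 0.0296; edgeR). Myh11, the smooth muscle myosin, was at 60.5 ± 45.6 CPM in LCDD and 149 ± 59.3 CPM in DH-LMP2A (adjusted p 0.227 without and 0.0376 with the block, edgeR). Without LCDD replicates 1 and 2, and without the block, Ren1 differed by -2.225 ± 0.63 and Myh11 by -0.82 ± 0.5 (SE; adjusted p 0.236 and 0.842, edgeR). The 5 markers of smooth muscle and renin cells summed to 169 to 437 CPM in LCDD, 539 to 881 CPM in DH-LMP2A and 304 to 479 CPM in WT, so the DH-LMP2A libraries, which had the lowest Col4a1 and Col4a2, had the highest sums of this list. Ptpro, named above among podocyte markers, was at 326 ± 144 CPM in LCDD, 385 ± 132 CPM in DH-LMP2A and 1426 ± 517 CPM in WT. In DH-LMP2A against WT it was at -1.89 ± 0.41 (SE; adjusted p 0.0592 without the block, 0.000479 with it, edgeR). All of these genes were named after their values were seen.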
